A study of Mus musculus with 8 samples.

Results

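Transcripts of the teneurins and the latrophilins were examined in pancreatic islets from mice that overexpress *Ucp2* in β-cells (βUCP2Tg) and from WT mice. The set comprised 7 genes, the teneurins *Tenm1*, *Tenm2*, *Tenm3* and *Tenm4* and the latrophilins *Adgrl1*, *Adgrl2* and *Adgrl3*, among 26894 gene symbols on the array. All 33 probes carrying one of these symbols were taken, out of 56605 probes that are not controls. *Tenm4* was picked because its signal differed between βUCP2Tg and WT islets on these same arrays, and its relatives and receptors were added around it. The differences between the groups in these 7 genes are therefore given as a description, with standard errors and intervals and without p-values. Whether a probe passed the limits of the fit across the whole array is stated for each gene, but since the same contrast picked *Tenm4*, this counts as part of the description and not as evidence.

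Teneurins are large single-pass transmembrane proteins of neurons and other cells, whose extracellular part ends in a barrel-shaped domain and binds partners on a neighbouring cell. Latrophilins are G protein-coupled receptors of the adhesion class that bind teneurins across the cell contact, and latrophilin 1, the product of *Adgrl1*, is a receptor for α-latrotoxin, a spider toxin that triggers exocytosis in neurons and endocrine cells. FLRT proteins, UNC5 receptors and neurexins belong to the same network of contacts, which is best known from axon guidance and synapse formation.

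The βUCP2Tg mice carried a mouse *Ucp2* cDNA under a rat *Ins2* promoter fragment, which restricts the transgene to insulin-producing cells, on a C57BL6/J background reached by repeated backcrossing. WT littermates were the controls, and all mice were male. Islets were picked by hand from animals of 8 to 12 weeks of age, and the labels give 8 h of incubation in medium with 200 mg/dL glucose for both genotypes. RNA from 4 βUCP2Tg and 4 WT islet samples was labelled with Cy3, and each sample was hybridised to its own Agilent mouse array. Whether a sample came from a single mouse or from pooled mice was not stated, so the SD and p-values below describe the spread between samples, which may be technical. The arrays shared a slide on which WT samples filled one row and βUCP2Tg samples the other, so that slide position and genotype cannot be told apart. Islets hold several cell types, and in such tissue RNA fewer cells of a type and less RNA per cell cannot be told apart.

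Values are normalized log2 signals, on which 0 is the 75th percentile of the array and a difference of 1 is 2-fold. A probe entered the test when 4 or more of the 8 arrays had it well above background by the scanner software's own mark, and it was called at an adjusted p under 0.05 by limma with a fold change over 1.5. Of 35363 probes tested, 74 were called higher in βUCP2Tg islets (0.209%) and 67 lower (0.189%). Between 33191 and 36320 probes were above background on each array. *Ucp2* followed the labels, with 7.92 ± 0.31 (SD, n = 4) in βUCP2Tg and 1.67 ± 0.25 (SD, n = 4) in WT islets at its brighter probe. All 10 β-cell markers were tested, none was called, and their mean signal was 5.60 to 5.95 in βUCP2Tg and 5.55 to 6.09 in WT islets. At an unadjusted p under 0.05 by limma, 1 of the 10 was lower (10%) and 0 higher, where 10.6% and 13.6% of all tested genes were. *Mafa*, with a difference of -0.32, was lower on every βUCP2Tg array than on every WT array, as were 6.53% of all tested probes. The macrophage list alone among the 10 cell type lists had no overlap between the groups, with a mean signal of 0.04 to 0.60 in βUCP2Tg and 0.84 to 1.41 in WT islets. Of its 5 genes *Cd14*, a co-receptor for bacterial lipopolysaccharide, was called lower, with a difference of -2.08. The groups overlapped at each of the others, *Cd68*, *Adgre1*, *Csf1r* and *Lyz2*, with differences of -0.87, -0.35, -0.54 and 0.10. At an unadjusted p under 0.05 by limma, 2 of the 5 were lower (40%) and 0 higher, where 10.6% of all tested genes were lower.

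βUCP2Tg replicate 4 and WT replicate 1 stood apart from the other samples of their groups in hypoxia response genes. The mean signal of 11 hypoxia response genes was 1.98, 1.92, 1.89 and 3.1 in βUCP2Tg replicates 1 to 4, and 2.64, 3.33, 3.36 and 3.49 in WT replicates 1 to 4. The mean of 8 acinar genes was 0.16, 1.97, 0.65 and 4.68 in βUCP2Tg and 3.83, 4.87, 5.43 and 0.62 in WT islets. In this list βUCP2Tg replicate 4 and WT replicate 4 were the samples farthest from their groups. Neither list had a called gene. At an unadjusted p under 0.05 by limma, 8 of the 11 hypoxia response genes were lower (72.7%) and 0 higher, where 10.6% of all tested genes were lower, and the median difference of the list was -1.12. At that limit 0 of the 8 acinar genes were higher or lower, with a median difference of -1.80. Without βUCP2Tg replicate 4 and WT replicate 1, 2469 probes were called higher (7.19%) and 3104 lower (9.04%) among 34324 tested. These 2 samples were left out because of their values, a choice that narrows the spread within each group, so results without them are given as descriptions only.

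Of the 33 teneurin and latrophilin probes, 24 were tested, 16 were above background on all 8 arrays and 8 were above background on none. Untested were 5 of the 6 *Tenm1* probes, 2 of the 4 *Tenm2* probes and 2 of the 7 *Adgrl3* probes. According to the descriptions in the deposited table, 16 of the 33 probes were designed to a curated RefSeq mRNA, and 10 of these were above background on every array. Another 13 were described by an Ensembl transcript, of which 3 were above background on every array and 6 on none.

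**Figure D1:**
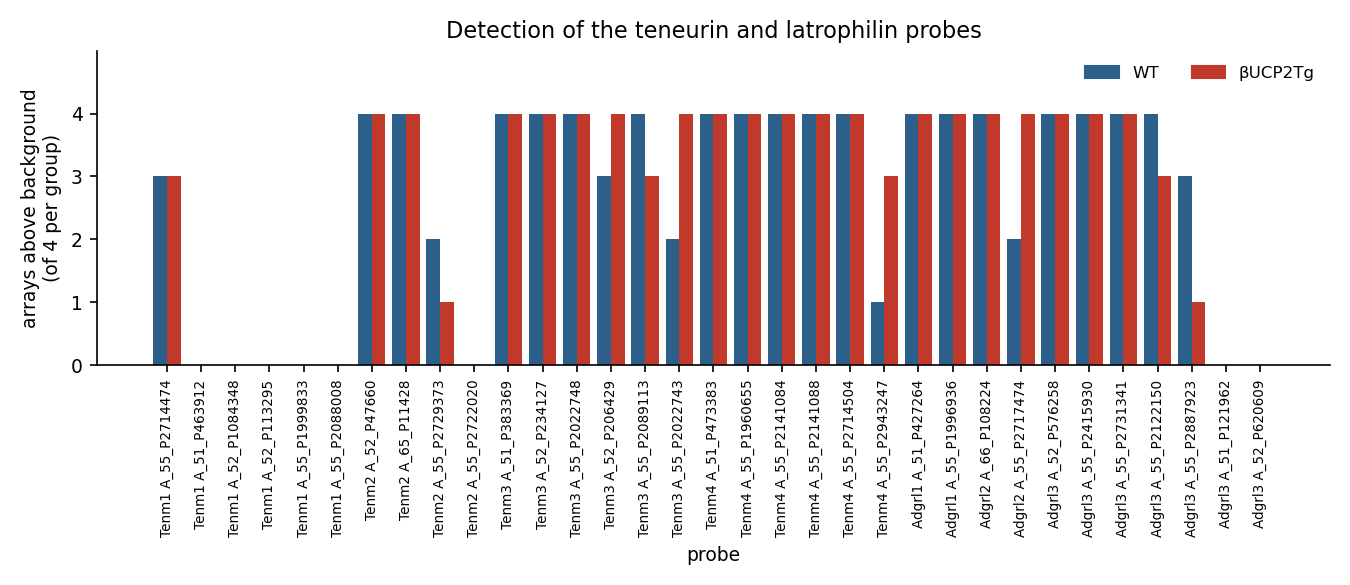
Number of arrays per group (vertical axis, out of 4) on which each of the 33 probes (horizontal axis, by gene) was well above background, with WT in blue and βUCP2Tg in red. Most *Tenm1* probes have no bar, whereas 5 of the 6 *Tenm4* probes were above background on all 8 arrays.

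The probes are 60 bases long, and 3 sets of sequences show what the *Tenm4* signals rest on. The first is the *Tenm4* probe most like a probe of another gene of the set. It is shown with that *Tenm1* probe, and capitals mark the bases that are identical when the probes are placed on each other without gaps.
Tenm1 A_51_P463912: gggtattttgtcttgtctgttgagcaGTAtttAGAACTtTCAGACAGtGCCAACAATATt
Tenm4 A_51_P473383: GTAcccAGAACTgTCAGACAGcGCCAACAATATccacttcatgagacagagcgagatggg
The probes overlapped over 34 bases, of which 28 (82.4%) were identical. Among 454 pairs of probes from different genes of the set, placed with an overlap of at least 20 bases, this pair had 22 more matches than mismatches and no other pair had over 6.

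The second is bases 31 to 60 of a further *Tenm4* probe, with AATAAA, the common polyadenylation signal, in capitals.
Tenm4 A_55_P2141088: tgacaAATAAAagactattttgtgtttaaa
Read on the probe strand only, this motif stood in 3 of the 33 probes (9.09%) and in 9.75% of all 56689 probes with a sequence. The third is bases 1 to 30 of the one bright *Tenm4* probe that did not separate the groups, with CG pairs in capitals.
Tenm4 A_55_P1960655: gtgcctCGcctcccCGcCGtcctCGtccac
G and C made up 76.7% of this probe, against a median of 41.7% over all probes, and 0.097% of all probes were as rich in G and C. No 2 *Tenm4* probes shared a run of more than 8 bases, so their signals came from separate stretches. None of the 6 shared a run of 20 bases with a probe of another gene.

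*Tenm4*, the gene picked for its difference, had the higher mean in βUCP2Tg islets at all 6 probes (at 5 with a normexp background correction), and 4 of them were past the limits of the fit, which restates its selection. Probe A_55_P2141084 read 4.14, 3.96, 4.01 and 3.88 on the βUCP2Tg arrays and 2.23, 1.77, 1.87 and 2.16 on the WT arrays. All βUCP2Tg values lay above all WT values, with a gap much wider than the range within either group. The means were 4.0 ± 0.11 and 2.01 ± 0.22 (SD, n = 4 each), a difference of 1.99 (standard error 0.13, 95% interval 1.69 to 2.28), or 3.97-fold.

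A pair of other bright *Tenm4* probes gave nearly the same difference. Probe A_55_P2141088, which holds the AATAAA motif shown above, read 3.20, 3.02, 3.1 and 3.07 in βUCP2Tg and 1.49, 0.85, 0.85 and 1.06 in WT islets. Its difference was 2.04 (95% interval 1.69 to 2.38). Probe A_51_P473383, which resembles the *Tenm1* probe, read 2.52, 2.33, 2.41 and 2.39 in βUCP2Tg and 0.62, 0.20, 0.29 and 0.59 in WT islets. Its difference was 1.99 (95% interval 1.71 to 2.27). These 3 probes are the ones of *Tenm4* that the deposited table describes by curated RefSeq mRNAs, namely transcript variant 3 for the first pair and variant 2 for the last. After each group's mean was removed, A_55_P2141084 followed A_51_P473383 with r = 0.96 and A_55_P2141088 with r = 0.85 over the 8 arrays. It did not follow the remaining *Tenm4* probes in this way, with r = 0.33 for A_55_P1960655, -0.24 for A_55_P2714504 and -0.58 for A_55_P2943247. This is a description over arrays that share their scaling.

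The remaining *Tenm4* probes are described by Ensembl transcripts, and they differed from the first 3 and from each other. Probe A_55_P2714504 was dim, with -2.98, -2.91, -2.69 and -2.0 in βUCP2Tg and -4.01, -4.30, -4.25 and -4.51 in WT islets. It was above background on all 8 arrays, its groups did not overlap, and it was called with a difference of 1.62 (95% interval 1.12 to 2.13). Of the 8 fits that each left out a single array, its call was kept in 2, those without βUCP2Tg replicate 4 and without WT replicate 1. It was lost without any one of the other arrays, whereas the first 3 probes were called in all 8 fits. In the 6 fits without the call its difference was 1.54 to 1.74, close to that over all arrays, while the probes called higher over the whole array numbered 8 to 25. With the normexp correction in place of the scanner's own, its difference was 0.52 and it was not called.

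Probe A_55_P2943247 was above background on 3 βUCP2Tg arrays and 1 WT array. It read -5.48, -4.90, -5.06 and -4.24 in βUCP2Tg and -6.71, -5.10, -6.70 and -5.74 in WT islets, with 1 WT value among the βUCP2Tg values. The difference of 1.15 (95% interval 0.22 to 2.07) was not called, and with normexp it was -0.064.

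Probe A_55_P1960655, the probe rich in G and C, was bright on all arrays. It read 2.72, 2.44, 2.22 and 2.30 in βUCP2Tg and 2.34, 2.21, 2.10 and 1.99 in WT islets. The groups overlapped, and the difference was 0.26 (95% interval -0.051 to 0.56), an interval that ends below that of each called *Tenm4* probe. Within each array, A_55_P2141084 read 1.58 ± 0.16 (SD, n = 4) above this probe in βUCP2Tg islets and -0.15 ± 0.25 (SD, n = 4) relative to it in WT islets. The gap thus differed by 1.73 between the groups, and it differed by 1.78 for A_55_P2141088, 1.73 for A_51_P473383 and 1.37 for A_55_P2714504, each without overlap. For A_55_P2943247 it differed by 0.89, with overlap. Probes with 1 gene symbol thus changed unequally. Where the 6 probes lie along *Tenm4* was not analysed here.

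**Figure D2:**
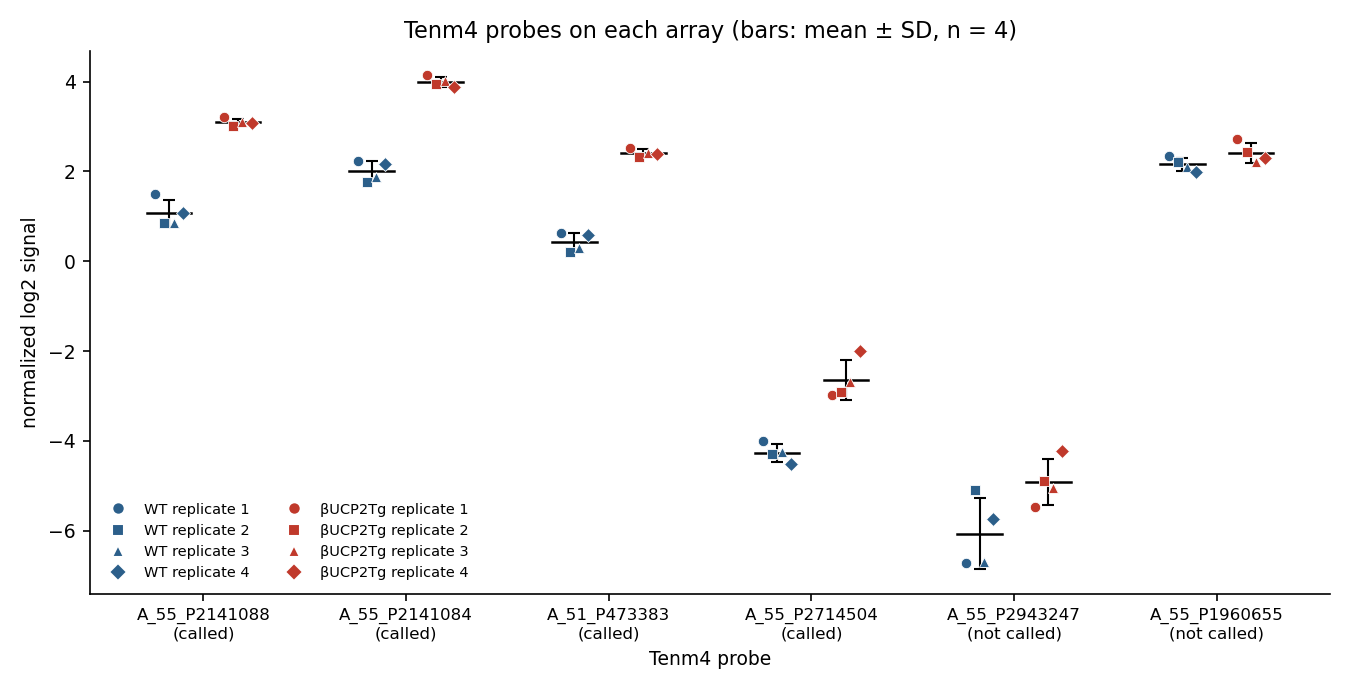
Normalized log2 signal (vertical axis) of the 6 *Tenm4* probes (horizontal axis) on each array, with WT in blue, βUCP2Tg in red, a marker shape for each replicate number and bars for mean ± SD (n = 4). The 3 probes at the left differ by 1.99 to 2.04 between the groups, and A_55_P1960655 at the right by 0.26.

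The *Tenm1* probe with the stretch like that of *Tenm4* was above background on none of the 8 arrays. It read between -7.35 and -6.97 in βUCP2Tg and between -7.52 and -6.88 in WT islets, so its βUCP2Tg values lay within the WT range. Of the 5 other *Tenm1* probes, 4 were likewise above background on no array. One of these, A_55_P1999833, shared a run of 25 bases with a probe that has no gene symbol. The only tested probe, A_55_P2714474, was above background on 3 arrays of each group, with -4.79, -4.64, -4.48 and -5.25 in βUCP2Tg and -4.42, -4.25, -4.43 and -4.82 in WT islets. The groups overlapped, with a difference of -0.31 (95% interval -0.74 to 0.13). *Tenm1*, an X-linked teneurin, was thus above background at 1 of its 6 probes, and there on 6 of the 8 arrays.

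*Tenm2*, whose product is known as a ligand of latrophilin 1, was above background on all arrays at its RefSeq probes. Probe A_65_P11428 read 0.45, 0.41, 0.69 and -0.12 in βUCP2Tg and 0.42, -0.62, -0.37 and -0.49 in WT islets. Probe A_52_P47660 read 0.45, 0.39, 0.44 and -0.20 in βUCP2Tg and 0.21, -0.58, -0.32 and -0.55 in WT islets. At both probes βUCP2Tg replicate 4 was the lowest of its group and WT replicate 1 the highest of its group. The groups overlapped because WT replicate 1 lay above βUCP2Tg replicate 4, and at A_65_P11428 also just above βUCP2Tg replicate 2. The differences were 0.62 (95% interval 0.036 to 1.21) and 0.58 (95% interval 0.084 to 1.07), and neither probe was called. Of the untested probes, A_55_P2729373 was above background on 1 βUCP2Tg and 2 WT arrays. A_55_P2722020 was above background on none, and 35 of its bases lie in the RefSeq promoter window of *Tenm2*, which spans the annotated start of the gene.

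*Tenm3*, known from the wiring of visual and hippocampal circuits, was tested at all 6 probes, of which 5 had a positive difference, or 3 with normexp. Probe A_51_P383369 read 1.89, 1.74, 1.77 and 1.32 in βUCP2Tg and 1.68, 0.68, 0.99 and 1.16 in WT islets. Probe A_52_P234127 read 0.63, 0.37, 0.52 and 0.064 in βUCP2Tg and 0.43, -0.88, -0.71 and -0.31 in WT islets. The same 2 samples as for *Tenm2* lay toward the other group, and the groups overlapped. The differences were 0.55 (95% interval 0.054 to 1.05) and 0.76 (95% interval 0.13 to 1.4), and neither was called.

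A dim *Tenm3* probe described by a predicted transcript went the other way. A_55_P2089113 read -4.16, -5.45, -4.07 and -3.37 in βUCP2Tg and -3.81, -2.84, -2.87 and -3.53 in WT islets, a difference of -1.0 (95% interval -1.98 to -0.029) that was not called. Again βUCP2Tg replicate 4 was the highest of its group and WT replicate 1 the lowest of its group. The other 3 *Tenm3* probes differed by 0.30 to 0.52, with intervals that included 0. With normexp the sign turned at 2 of these 3, to -0.059 in place of 0.52 at A_55_P2022743 and to -0.19 in place of 0.30 at A_52_P206429. The latter was also negative, at -0.15, without WT replicate 4.

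Without βUCP2Tg replicate 4 and WT replicate 1, the *Tenm2* differences were 1.01 and 0.91, and those of the first 2 *Tenm3* probes were 0.86 and 1.14. Each of these 4 probes was then called higher, and A_55_P2089113 was called lower with -1.48. Their groups no longer overlapped, but under the same choice the groups of 22% of all tested probes lay with βUCP2Tg above WT, and those of 22.3% below. Leaving out WT replicate 1 alone gave the same 4 higher calls, with 1889 probes called higher and 1918 lower in all. At the first 3 *Tenm4* probes the differences were 2.10, 2.19 and 2.06 without both samples, and 2.06, 2.18 and 2.05 without WT replicate 1 alone. The hypoxia response genes also lay toward the other group in these 2 samples, whereas the acinar genes did so in βUCP2Tg replicate 4 and in WT replicate 4, not in WT replicate 1. The part of either list in the *Tenm2* and *Tenm3* values was not tested.

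**Figure D3:**
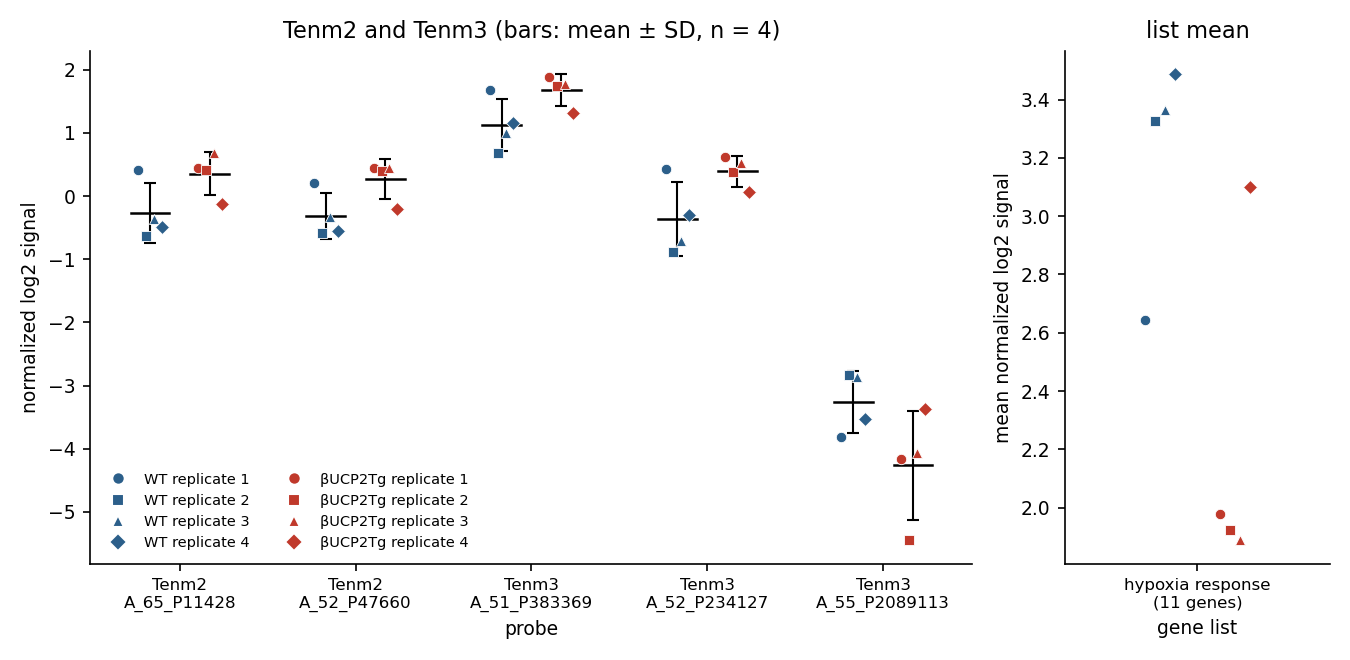
Left, normalized log2 signal (vertical axis) of 2 *Tenm2* and 3 *Tenm3* probes (horizontal axis) on each array, with bars for mean ± SD (n = 4). Right, mean signal of 11 hypoxia response genes on the same arrays. WT replicate 1 (blue circle) and βUCP2Tg replicate 4 (red diamond) lie toward the other group at each probe and in the list, where they read 2.64 and 3.1.

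The latrophilins had no called probe. *Adgrl1* was above background on all arrays at both probes. Its brighter probe, A_51_P427264, read 4.71, 4.49, 4.54 and 4.59 in βUCP2Tg and 4.77, 4.11, 4.38 and 4.51 in WT islets. WT replicate 1 was the highest of all 8, and the difference was 0.14 (95% interval -0.19 to 0.47), which leaves out a change of 1.5-fold in either direction. The dimmer probe, A_55_P1996936, differed by 0.24 (95% interval -0.15 to 0.63), and by -0.090 with normexp.

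*Adgrl2* was tested at both probes. A_66_P108224 read -1.81, -1.33, -1.36 and -1.81 in βUCP2Tg and -2.67, -1.31, -1.22 and -1.95 in WT islets. Most of the spread lay within the WT group, and the difference was 0.21 (95% interval -0.52 to 0.93). Without WT replicate 1 it was -0.088. The second probe, A_55_P2717474, was above background on 4 βUCP2Tg and 2 WT arrays. Its difference of 0.75 (95% interval 0.18 to 1.33) was not called, its groups overlapped, and with normexp it was -0.037.

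*Adgrl3* was tested at 5 of 7 probes, and all 5 differences were negative, from -0.63 to -0.15. Without βUCP2Tg replicate 4 and WT replicate 1, that of A_52_P576258 was 0.075. Probe A_55_P2731341, the brightest, read -1.28, -1.47, -1.39 and -1.53 in βUCP2Tg and -0.97, -1.21, -1.35 and -1.54 in WT islets. The groups overlapped here and at the other 4 probes, and 4 of the 5 intervals included 0. The exception, A_55_P2887923, had an interval of -1.24 to -0.014 and was above background on 1 βUCP2Tg and 3 WT arrays.

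Over the set, 4 of 24 tested probes were called higher and 0 lower. By limma's unadjusted intervals, 10 of the 24 lay above 0 (41.7%) and 2 below (8.33%), where 10.6% and 14.1% of all tested probes did, and the methods' t-test after adjustment called 3 higher and 0 lower. Groups did not overlap at 4 probes, those of *Tenm4* called above, and overlapped at the other 20, where 5.53% of all tested probes had every βUCP2Tg value above every WT value and 6.53% had every value below. Since the set was built around *Tenm4*, nothing is read from its share of calls or of intervals above 0. The median difference was 0.30 over the 24 probes, 0.23 over the 18 probes of the other 6 genes and -0.0062 over all tested probes. Of those 18, 11 were positive, where 49.1% of all tested probes were. With normexp 7 were positive, where 34.2% of all tested probes were.

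**Figure D4:**
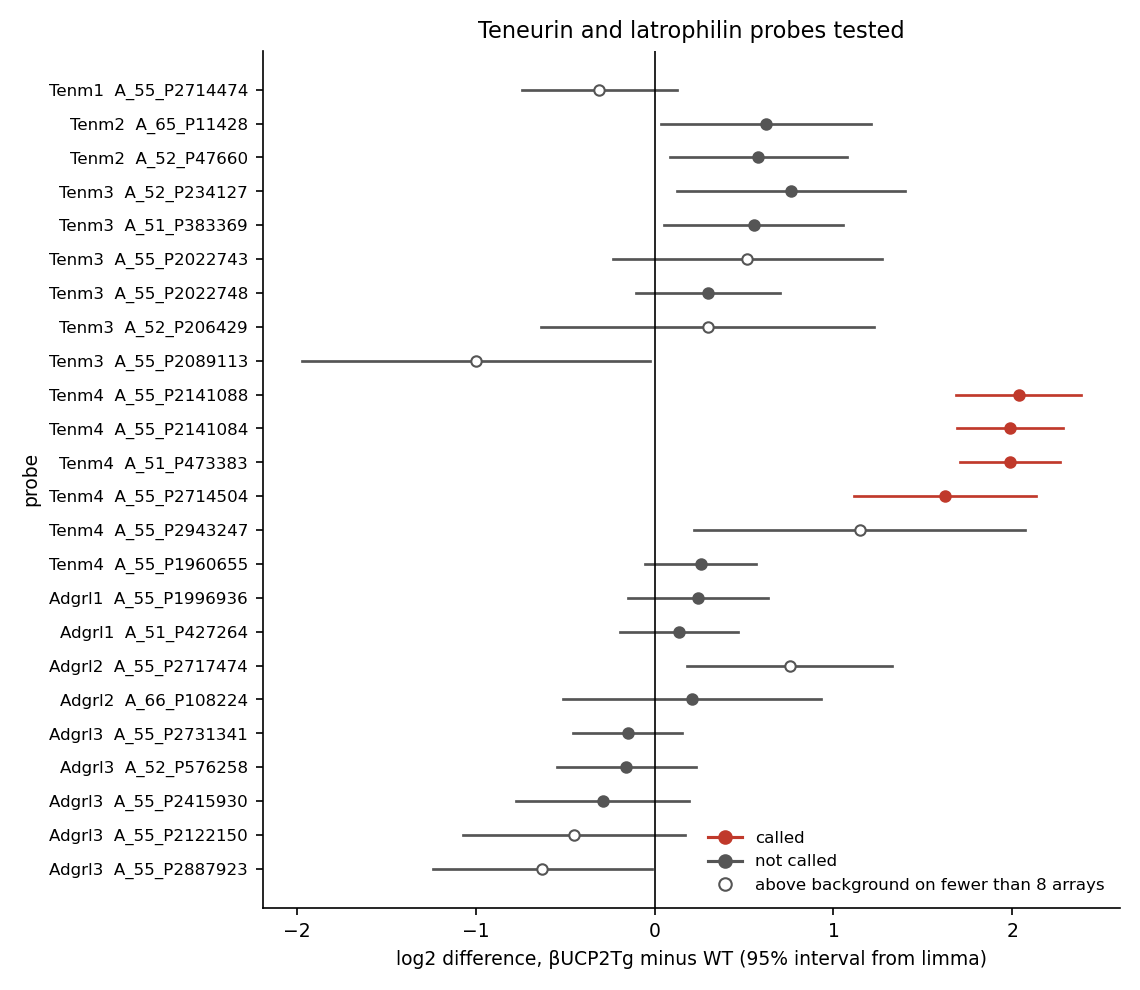
Difference in normalized log2 signal between βUCP2Tg and WT islets (horizontal axis, points) with limma's 95% interval (lines) for the 24 tested probes (vertical axis). Called probes are red, and open points were above background on fewer than 8 arrays. The called *Tenm4* probes lie between 1.62 and 2.04, and the probes of the other genes lie between -1.0 and 0.76.

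The other genes of the pathway were described by their counts. Of 22 genes for binding and signalling partners, 20 were tested, 1 had a probe called higher (5%) and 0 had one called lower. At an unadjusted p under 0.05 by limma, 5 of the 20 were higher (25%) and 1 lower (5%), compared with 13.6% and 10.6% of all genes tested. The methods' t-test after adjustment called none in either direction in this list or the next. Over all 17860 genes tested, 59 had a probe called higher (0.33%) and 53 one called lower (0.297%). The median difference was 0.11 in the list and 0.044 over all genes. *Flrt2* and *Unc5d*, a latrophilin ligand and a netrin receptor, were not above background on any array at any probe.

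None of the differences of the partners named next passed the test. *Adgrl4*, a receptor of endothelial cells related to the latrophilins, had -1.24, -1.72, -1.4 and -1.66 in βUCP2Tg and -1.78, -3.16, -2.51 and -1.85 in WT islets. The difference was 0.82 (adjusted p = 0.149 by limma). The mean signal of 8 endothelial markers was 1.43 to 1.58 in βUCP2Tg and 0.92 to 1.55 in WT islets. None of the 8 was called. At an unadjusted p under 0.05 by limma, 3 of them were higher (37.5%) and 1 lower (12.5%), where 13.6% and 10.6% of all tested genes were, and the median difference was 0.20. The 3 were *Emcn*, *Kdr* and *Tek*, with differences of 1.03, 0.77 and 0.67. *Plvap* differed by 0.42. The other markers went the other way, *Egfl7* by -0.53, *Esam* by -0.34, *Cdh5* by -0.11 and *Pecam1* by -0.011, so that 4 of the 8 were positive. The part of endothelial RNA in the *Adgrl4* value was not tested. *Flrt3*, a ligand of latrophilins, had a difference of -1.28 (adjusted p = 0.104 by limma), with -4.18, -4.74, -4.12 and -3.13 in βUCP2Tg and -3.43, -2.60, -2.27 and -2.76 in WT islets.

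Of 14 further adhesion genes of synapses, 10 were tested and none was called in either direction. At an unadjusted p under 0.05 by limma, 2 were higher (20%) and 1 lower (10%), against the same 13.6% and 10.6% of all genes, and the median difference was -0.065. *Nlgn1*, a neurexin ligand of excitatory synapses, differed by 0.81 (adjusted p = 0.154 by limma). *Lrrtm2*, another neurexin ligand, differed by -0.97 (adjusted p = 0.115 by limma), and βUCP2Tg replicate 4, at 0.0094, lay within the WT range of -0.40 to 0.78. *Slitrk2* and *Slitrk3* were not above background on any array.

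Since *Tenm4* and its relatives are best known from neurons, 6 neuronal markers were set beside them. Their mean signal was -0.65 to -0.19 in βUCP2Tg and -0.83 to -0.12 in WT islets. *Rbfox3* encodes a splicing factor of mature neurons. Its brightest probe, A_55_P1993777, differed by 1.06 and was not called (adjusted p = 0.0835 by limma), whereas its dimmer probe A_52_P674067 was called higher with a difference of 1.01 (adjusted p = 0.0441 by limma). *Th*, which encodes tyrosine hydroxylase, differed by 1.22 (adjusted p = 0.0836 by limma) and *Chat*, which encodes choline acetyltransferase, by -0.85 (adjusted p = 0.0523 by limma), and neither was called. The groups did not overlap at any of these 4 probes, with βUCP2Tg above WT islets for *Rbfox3* and *Th* and below for *Chat*. At an unadjusted p under 0.05, 2 of the 6 genes were higher (33.3%) and 1 lower (16.7%), where 13.6% and 10.6% of all tested genes were. Of the 6, 3 differed positively, and the median difference was -0.24. The part of neuronal RNA in the *Tenm4* values was not tested.

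The genes whose signal varied most like that of *Tenm4* were found by correlating each probe with A_55_P2141084 over the 8 arrays after the group means were removed. Among 27302 probes above background on all arrays and carrying a gene symbol other than *Tenm4*, the 5 closest genes were *Tbc1d16* (r = 0.998), *Pxylp1* (r = 0.997), *Dopey2* (r = 0.995), *Nalcn* (r = 0.993) and *Fam174a* (r = 0.993). None of them was called, and their differences lay between -0.054 and 0.27. *Tbc1d16* read 4.06, 3.64, 3.79 and 3.37 in βUCP2Tg and 4.39, 3.11, 3.42 and 4.17 in WT islets, so that it shared the order of the samples within each group with *Tenm4* but not the step between the groups. These correlations are descriptions over 8 arrays that share scaling and slide.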

How the data were processed

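RNA from 4 βUCP2Tg and 4 WT islet samples was hybridised to one-colour Agilent arrays. The authors scanned the arrays with Agilent Feature Extraction, and the deposited scanner files hold spot intensities after background subtraction and spatial detrending, with no scaling between arrays. The deposited GeneSpring table holds normalized log2 values, which the authors made by subtracting a constant from the log2 intensity on each array. Set against the scanner files, these columns departed from a constant shift by at most 1.84e-06, and their 75th percentile was at 0. The build in the file headers is mm9. No coordinates are printed. The table also holds the authors' fold changes and p-values, which were not used.

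From the log2 values, a two-sided moderated test of βUCP2Tg against WT was fitted by lmFit and eBayes of limma 3.58.1 (R 4.3.3) over 35363 probes well above background on 4 or more arrays, where at least 50% of a probe's kept spots had to be above background. P-values were adjusted by the Benjamini-Hochberg method over these probes. The calling limits were an adjusted p of 0.05 and a fold of 1.5. No spot was saturated, and 48 to 106 spots per array were marked as outliers. The number of arrays limits the precision. The fit was tested on simulated data. Probe sequences were read from the deposited table, and gene starts from RefSeq (GRCm38.p6). Python 3.11.15 with matplotlib 3.10.9 was used for sequences and figures.

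The genes, the partner lists and the marker lists were chosen with earlier results of these data known. Named are all 7 genes probe by probe, with the brightest probe standing for a gene, partner genes with a called probe, the 2 partners with the largest rise and the 2 with the largest fall, and the 5 genes most like *Tenm4*. The values of 1 partner gene are not reported here. *Unc5a*, *Cd14*, *Rbfox3*, *Th*, *Chat*, *Emcn*, *Kdr*, *Tek* and the partners not above background were named after their values were seen. So were *Mafa*, the other macrophage genes and the other endothelial markers. Besides the partners, lists were fixed for β, α, δ, PP, acinar, endothelial, stellate, Schwann, neuronal and macrophage cells and for the hypoxia response. Those not described in the results overlapped between the groups and had no called gene.

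The alternatives were no filter, a filter at all 8 arrays, the scanner intensities scaled here and a normexp correction with an offset of 50. Others were quantile normalization, median centring, Student's t-test without moderation, an intensity trend, a fold limit of 2 and the replicate number as a block. The mean over a gene's probes was also taken, and each array was left out, as were βUCP2Tg replicate 4 and WT replicate 1 together.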

Additional observations from a re-analysis of the deposited data

Results flagged for a closer look

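Single samples far from the other 3 of their group were sought by Dixon's ratio, the gap to the nearest sample divided by the whole range, in 58 groups of 4. At Dixon's 95% critical value about 1 group in 20 is picked by chance, or 2.9 of 58, and 3 were found. No cause was tested for any of them.

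In the group of βUCP2Tg samples, replicate 4 had a *Tenm2* signal of -0.20 at A_52_P47660, where the other 3 read 0.39 to 0.45 (ratio 0.912). In the WT group, replicate 4 had a *Tenm3* signal of -6.30 at A_52_P206429, where the other 3 read -4.65 to -4.38 (ratio 0.858), and the probe was above background on 3 of the 4 WT arrays. The mean of 11 hypoxia response genes was 3.1 in βUCP2Tg replicate 4 and 1.89 to 1.98 in the other 3 (ratio 0.925).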

How the results depend on the processing

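*Tenm4* probes A_55_P2141084, A_55_P2141088 and A_51_P473383 were called in all 20 alternatives that recomputed the calls, and A_55_P2714504 in 10 of them. With single arrays left out, the difference of A_55_P2141084 lay between 1.91 and 2.06. The number of *Tenm4* and related probes called higher lay between 3 and 8 and the number called lower was 0, while all probes called ranged from 8 to 1889 higher and from 0 to 1918 lower, and partner genes from 0 to 4 higher and from 0 to 3 lower. The highest counts came without WT replicate 1. The mean over all tested *Tenm4* probes was 1.51, which includes A_55_P1960655 and both dim probes.

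Against 74 probes called higher and 67 lower, there were 18 and 2 without a filter, 101 and 120 with a filter at all arrays, 231 and 585 with normexp, 139 and 168 with an intensity trend, and 55 and 36 at a fold of 2. Student's t-test gave 16 and 6 after adjustment and 1066 and 1722 before it. Leaving out βUCP2Tg replicate 4 and WT replicate 1 gave 2469 and 3104. Of all calls, 52.5% were higher as reported and 28.3% with normexp, which moved the median of all probes to -0.091. Without those 2 samples, 8 teneurin and latrophilin probes were called higher and 1 lower. The partner genes called were 1 higher and 0 lower as reported. They were 0 higher without a filter, with the adjusted Student's t-test and at a fold of 2. They were 2 higher (*Unc5a* among them) and 1 lower (*Flrt3*) with normexp. With the unadjusted Student's t-test 3 were higher and 2 lower, and without the 2 samples 4 were higher and 4 lower. The cause of these shifts was not tested.

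Replicate numbers did not pair the samples, since same-numbered samples correlated with 0.44, -0.045, -0.0076 and -0.24 after group means were removed, and only those numbered 1 correlated best with each other. With the replicate number as a block, 14 probes were called higher and 1 lower, among them 3 *Tenm4* probes and 0 partner genes.

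Of 328 differences of the other probes of the 7 genes recomputed under these settings, 322 moved by less than 1 SD. Of the 328, 184 came from fits without a single array, which with 4 samples per group cannot move a difference by 1 SD. The replicate block cannot move it at all. The 6 that moved by 1 SD or more came mostly with normexp. The limits are the low signal of *Tenm1* and of the dim probes, whose sign turned with normexp where stated, and 4 samples per group.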
